A study of Xenopus laevis with 3 samples.

Results

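The genes of 5 small, non-collagen proteins that chondrocytes secrete were followed in heads of Xenopus laevis tadpoles: chondromodulin (cnmd), epiphycan (epyc), the Gla-rich protein Ucma (ucma), otospiralin (otos) and cytokine-like 1 (cytl1). They were chosen by name, with earlier results of these data known. Every probe set was taken whose only annotated symbol was cnmd.L, cnmd.S, epyc.S, ucma.L, otos.L, otos.S or cytl1.L. This gave 7 genes of 11303 with a probe set, each with 1 probe set on the array. X. laevis is tetraploid, and a gene is often present in a copy from each subgenome, called homeologs and written .L and .S. Both copies were measured for cnmd and otos. The gene table used for names also lists epyc.L and ucma.S, which were not analysed here.

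RNA came from whole heads at about stage 41, cut off 72 hours after fertilisation, in a study of cartilage formation that depleted MLTK, a protein kinase, or Sox6, a transcription factor. The xMLTK-MO group had received a morpholino, an antisense oligonucleotide that blocks translation or splicing, against MLTK. The xSox6-MO group had received a morpholino against Sox6, and the CoMO group, named but not spelled out in the labels, served as the control. Every group had been injected with 10 ng per cell in all blastomeres at the 4-cell stage, so controls carried a morpholino too, and depletion was not limited to cartilage. The strain, the clutch and the number of heads per sample are not given in the sources used here. Each group had 1 array and no replicate. No difference could therefore be set against a spread between embryos, no test was run, and the values describe these 3 arrays only.

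Cartilage is a matrix of collagen fibrils and sulphated proteoglycans laid down by chondrocytes, and the head cartilages of a tadpole form largely from cranial neural crest cells. Sox9 is the transcription factor required to make chondrocytes, and in mice Sox5 and Sox6 act beside it on cartilage matrix genes. Besides the large collagens and proteoglycans, chondrocytes secrete small proteins, and the genes described here belong to that class. Some of these proteins bind mineral, restrain blood vessels or organise the collagen fibrils.

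The deposited values were probe-set intensities, relative measures that do not compare one gene with another, so levels are compared only between arrays, for the same gene or for the sum over the same list. Such a sum is carried by its brightest probe sets. A probe set was called above background when it was brighter than the brightest of 23 negative control probe sets on its array, which had an intensity of 26.2 in xMLTK-MO, 21.0 in xSox6-MO and 23.3 in CoMO. All 7 genes were above it on all 3 arrays. Of all genes, 84.0% were above it in xMLTK-MO, 85.6% in xSox6-MO and 85.1% in CoMO. A level filter, a mean log2 intensity of at least 6.51 over the arrays, was passed by 7258 of the 11303 genes and by 5 of the 7. Both cnmd.S and cytl1.L were below it. Of 10 listed copies of head genes, mostly of brain and eye, 8 were above background in xMLTK-MO, 10 in xSox6-MO and 9 in CoMO. The forebrain and eye genes otx2.L, pax6.L and crx.L were above it on all 3 arrays. Of 9 trunk and tail Hox genes only hoxd13.S was above background, on 1 array and barely, with an intensity of 21.1 in xSox6-MO.

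Compared with CoMO, 6 of the 7 genes were lower in xMLTK-MO and the same 6 were lower in xSox6-MO, while cytl1.L was too close to background to be given a direction. Both comparisons subtract the same CoMO array, so a high value there lowers both, and they are not independent. The 6 also include both copies of cnmd and of otos, which are not independent measurements. The genes at least 2-fold lower were otos.L, otos.S and cnmd.S in xMLTK-MO, and these with cnmd.L and epyc.S in xSox6-MO. The median difference of log2 intensity was -0.75 in xMLTK-MO and -1.15 in xSox6-MO, against -0.007 and -0.02 over all 11303 genes. Being at least 2-fold lower was rare among genes passing the level filter, holding for 0.785% of them in xMLTK-MO and 1.06% in xSox6-MO, and among all genes, for 0.77% and 1.02%. Of the members passing the filter, 2 of 5 were so in xMLTK-MO and 4 of 5 in xSox6-MO. Because the members were chosen with earlier results of these data known, these counts are no test of the list. Lower by any amount in xMLTK-MO were 51% of all genes, and in xSox6-MO 53%, so the direction alone is weak information. With a line at 1.5-fold, 5 members were lower in xMLTK-MO and 6 in xSox6-MO, where 3.9% and 4.94% of all genes were. In bulk RNA of whole heads, fewer chondrocytes and less RNA per chondrocyte cannot be told apart.

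**Figure D1:**
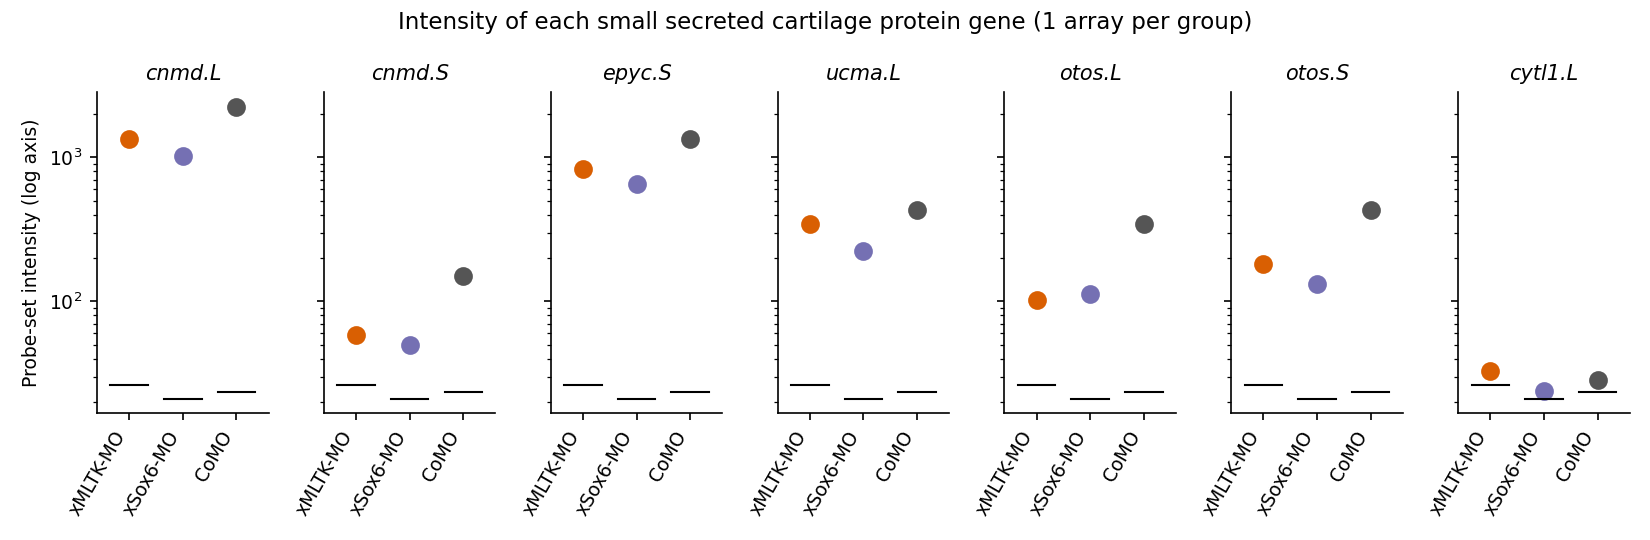
Probe-set intensity (log axis) of each of the 7 genes on the xMLTK-MO, xSox6-MO and CoMO arrays. Each point is 1 array and each short black line is the brightest negative control of that array. The CoMO point is the highest in 6 of the panels, and in the cytl1.L panel all 3 points lie close to the line.

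Chondromodulin, the product of cnmd, is a glycoprotein of avascular cartilage that restrains blood vessel growth. It is made as a membrane precursor with a BRICHOS domain, and its cleaved end is released into the matrix. The intensity of cnmd.L (probe set Xl2.21971.1.S1_at) was 1336 in xMLTK-MO and 1015 in xSox6-MO, against 2247 in CoMO. CoMO was thus the brightest array and xSox6-MO the dimmest, with log2 differences from CoMO of -0.75 and -1.15, or 1.68-fold and 2.21-fold lower. The intensity of cnmd.S (Xl2.48241.1.S1_at) was 58.5 in xMLTK-MO and 49.7 in xSox6-MO, against 149 in CoMO. The order of the arrays was the same, and cnmd.S was 2.55-fold and 3.01-fold lower than in CoMO. It was closer to background, at 2.23 and 2.36 times the brightest negative control in xMLTK-MO and xSox6-MO and 6.42 times in CoMO.

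Otospiralin, the product of otos, is a small secreted protein best known in mammals from fibrocytes of the inner ear. The intensity of otos.L (Xl2.49012.1.S1_at) was 103 in xMLTK-MO and 112 in xSox6-MO, against 344 in CoMO. Both morphant arrays were low and close to each other, 3.35-fold and 3.07-fold lower than CoMO. The intensity of otos.S (Xl2.29207.1.S1_at) was 182 in xMLTK-MO and 132 in xSox6-MO, against 430 in CoMO. This copy was 2.37-fold lower in xMLTK-MO and 3.25-fold lower in xSox6-MO, with xSox6-MO the dimmest array. Differences as low as that of otos.L were found for 0.0708% of all genes in xMLTK-MO and 0.159% in xSox6-MO. For otos.S the shares were 0.310% and 0.142%.

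Since otospiralin marks the inner ear in mammals, genes of that organ were set beside it. Of 15 inner ear symbols listed, 3 had a probe set. The claudin gene cldn14.L and the otoancorin gene otoa.L were not above background on any array. The connexin gene gjb2.L, which the skin also expresses, had intensities of 89.5 in xMLTK-MO and 100.7 in xSox6-MO, against 97.7 in CoMO. The summed intensity of the 3, mostly that of gjb2.L, was 121 in xMLTK-MO and 128 in xSox6-MO, against 121 in CoMO. A numbered copy outside the list, the tectorin gene tecta.2.S, was added after its values were seen. Its intensity was 19.4 in xMLTK-MO, below background, and 23.6 in xSox6-MO, against 42.7 in CoMO, which makes it at least 1.63-fold lower in xMLTK-MO and 1.81-fold lower in xSox6-MO. These folds are uncertain, since tecta.2.S was only 1.12 times the brightest negative control in xSox6-MO and 1.84 times in CoMO. The part of the inner ear in the otos differences was not tested.

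Epiphycan, the product of epyc, is a small leucine-rich proteoglycan of growth cartilage that binds among collagen fibrils. The intensity of epyc.S (Xl2.48813.1.S1_at) was 825 in xMLTK-MO and 649 in xSox6-MO, against 1330.3 in CoMO. It was again brightest in CoMO and dimmest in xSox6-MO, 1.61-fold and 2.05-fold lower than in CoMO. Its value in xSox6-MO lay just past the 2-fold line, at a log2 difference of -1.03.

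Ucma is a secreted protein of early chondrocytes, rich in Gla, the calcium-binding residue made by vitamin K-dependent carboxylation. The intensity of ucma.L (Xl2.56936.1.S1_at) was 345 in xMLTK-MO and 225 in xSox6-MO, against 433 in CoMO. The xMLTK-MO array was nearer to CoMO than to xSox6-MO. The log2 difference from CoMO was -0.33 in xMLTK-MO, a size reached in that direction by 12.8% of all genes. In xSox6-MO it was -0.95, or 1.93-fold lower, a size reached by 1.20% of all genes.

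Cytokine-like 1, the product of cytl1, is a small secreted protein made by chondrocytes in mice. The intensity of cytl1.L (Xl2.56931.1.S1_at) was 32.8 in xMLTK-MO and 23.7 in xSox6-MO, against 28.3 in CoMO. These values were 1.25, 1.13 and 1.21 times the brightest negative control of their arrays. The log2 differences from CoMO were 0.22 and -0.26. The brightest negative control also varied between arrays, at 26.2 in xMLTK-MO, 21.0 in xSox6-MO and 23.3 in CoMO. So close to background, no direction is read from the cytl1.L values.

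**Figure D2:**
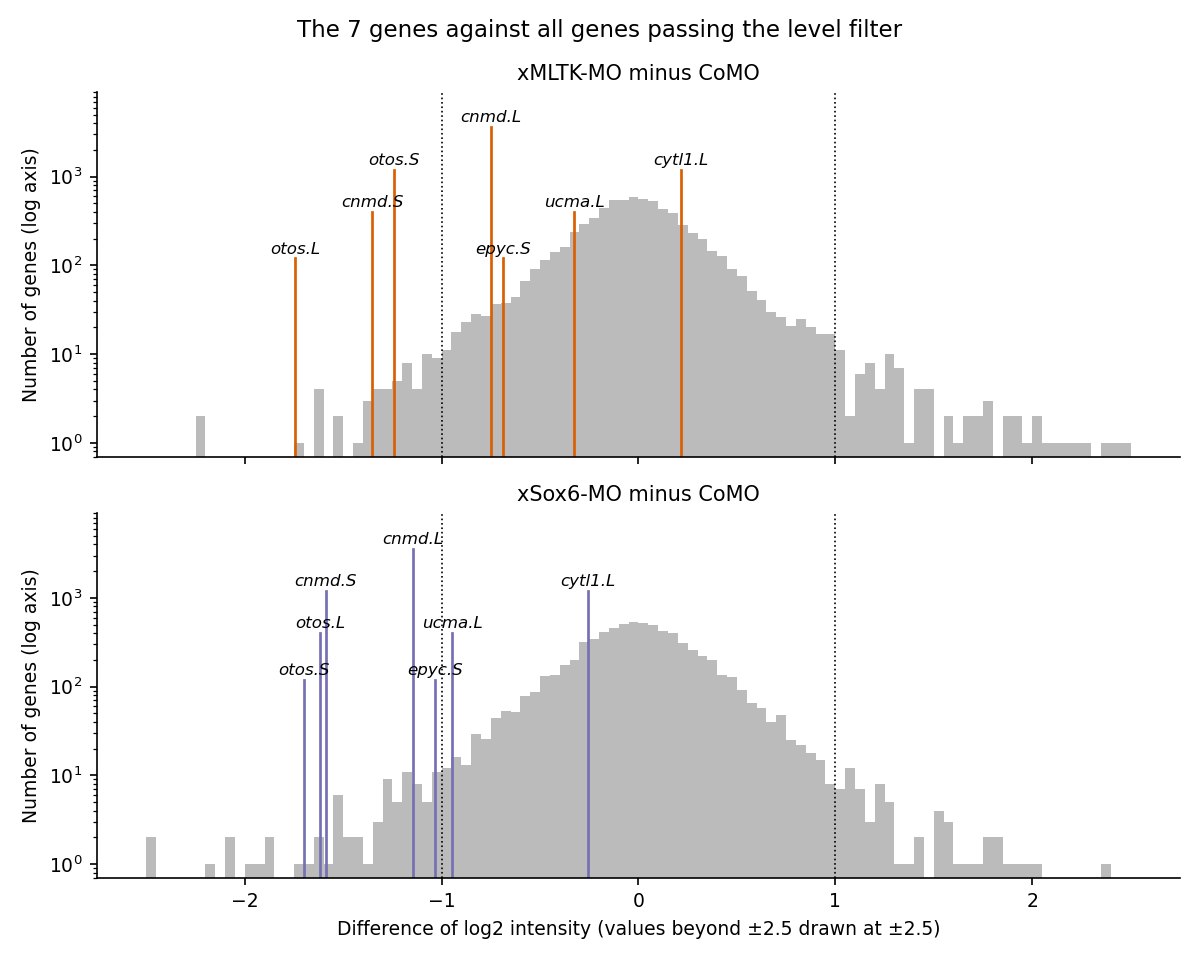
Number of genes (log axis) by difference of log2 intensity from CoMO for the 7258 genes passing the level filter, with a line for each of the 7 genes (cnmd.S and cytl1.L, below the filter, are drawn but not in the bars) and dotted lines at 2-fold. In xMLTK-MO 3 of the lines, and in xSox6-MO 5, lie left of the lower dotted line, and cytl1.L lies within the bulk in both panels.

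The .L and .S copies could be compared for cnmd and otos as differences from CoMO. In xMLTK-MO cnmd.S differed by -1.35 and cnmd.L by -0.75, a gap of 0.60 on the log2 scale. Across 1603 homeolog pairs with both copies above background on all arrays, the median gap was 0.16, and 5.86% of pairs were as far apart as cnmd. Of the 2 copies, cnmd.S lies closer to background. With an offset of 16 before log2, cnmd.S differed from CoMO by -1.15 and cnmd.L by -0.74 in xMLTK-MO. An offset always shrinks the difference of a dim probe set more than that of a bright one. Raising values to the brightest negative control left -1.35 and -0.75, since both copies were above it on all arrays. How far background bears on the gap was therefore not tested. In xSox6-MO the gap of cnmd was 0.44, reached by 15.5% of pairs. For otos the gap was 0.50 in xMLTK-MO, with otos.L the lower copy, and 9.36% of pairs were as far apart. In xSox6-MO the otos copies differed from CoMO by -1.62 and -1.70, a gap of 0.09.

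Pairs with both copies at least 2-fold lower were few. In xMLTK-MO there were 5 such pairs of 1603, those of otos, hsp90b1, hspb1, klhl41 and myoz2. In xSox6-MO there were 9, those of otos, cnmd, cyp51a1, gnat1, hspb1, insig1, pde6h, rom1 and sag. These were named because they fulfil the count, after their values were seen. The copies of a pair are alike in sequence and may share probes, so they are not independent measurements, and how far each probe set tells its copy apart was not tested. The gene table lists otos.S among the synonyms of otos.L and the reverse, so the names of these copies are also less certain.

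**Figure D3:**
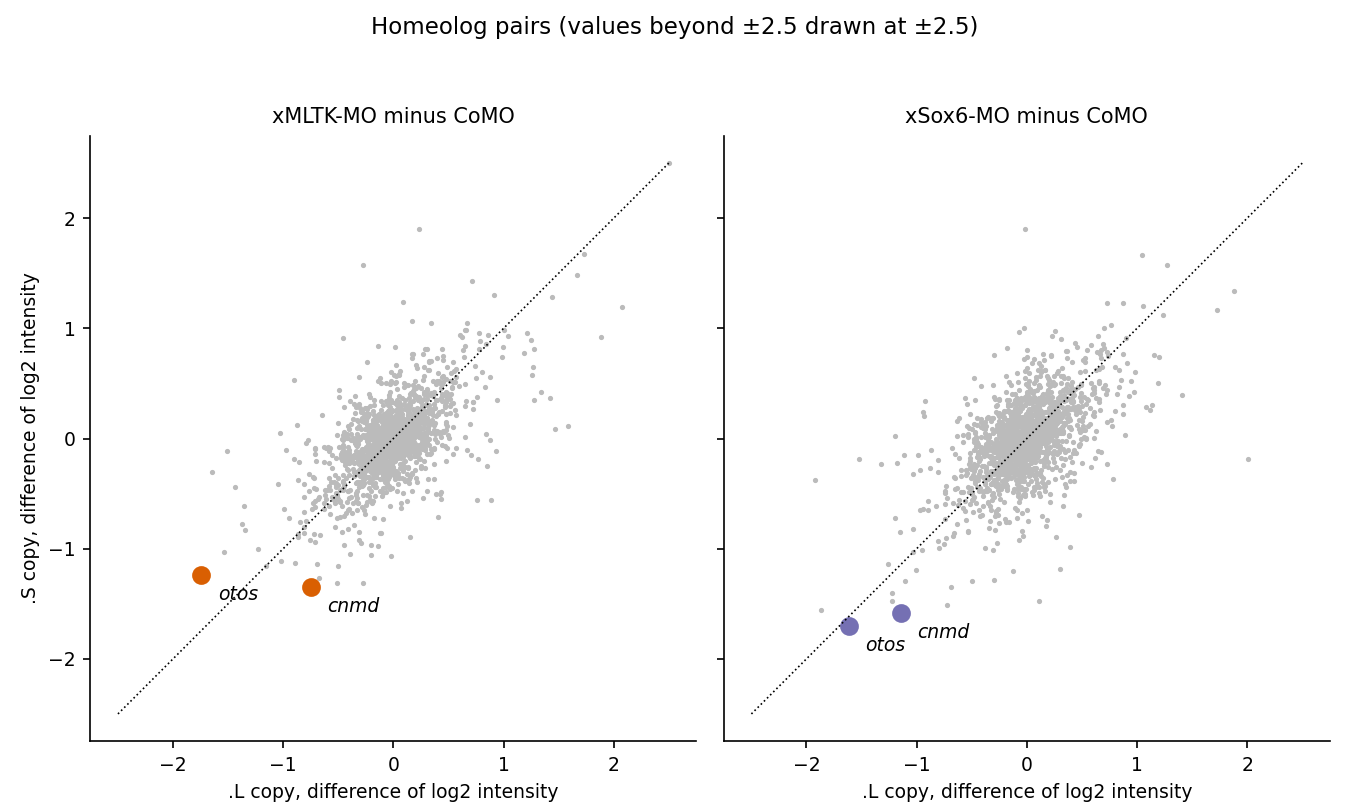
Difference of log2 intensity from CoMO of the .L copy (horizontal) and the .S copy (vertical) for 1603 homeolog pairs in xMLTK-MO and xSox6-MO, with cnmd and otos enlarged and a dotted line where copies are equal. Both pairs lie at the lower left edge, with cnmd below the line in both panels and otos above it in xMLTK-MO and near it in xSox6-MO.

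The morphant arrays were also compared with each other. Of the 7 genes, 6 were higher in xMLTK-MO than in xSox6-MO and 0 were at least 2-fold higher or lower, where 53.1% of all genes were higher at all. The 6 include cytl1.L, which is too close to background to be given a direction. Being at least 2-fold higher or lower held for 0.566% and 0.248% of all genes. The median log2 difference, xMLTK-MO minus xSox6-MO, was 0.40, against 0.02 over all genes. The largest was that of ucma.L at 0.62, or 1.54-fold, and 97.7% of all genes had a value as low or lower. It was the 1 member at least 1.5-fold higher, as 2.76% of all genes were. The value of cytl1.L, the gene near background, was 0.47. The others were 0.46 for otos.S, 0.40 for cnmd.L, 0.35 for epyc.S and 0.24 for cnmd.S. The exception was otos.L, at -0.13.

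Other genes of the cartilage matrix were given by lists, counting gene copies above background on at least 1 array of the pair. In xMLTK-MO, 7 of 8 copies of cartilage collagens, matrilins and link proteins were lower and 2 were lower by 2-fold or more, with a median log2 difference of -0.45. In xSox6-MO the counts were also 7 and 2, with a median of -0.68. The main fibril collagen gene, col2a1.L, had intensities of 4802 in xMLTK-MO and 5409 in xSox6-MO, against 6050.1 in CoMO. Its log2 differences of -0.33 and -0.16 were smaller than those of epyc.S and both copies of cnmd and otos on the same arrays. In xMLTK-MO the difference of ucma.L was no larger than that of col2a1.L. Collagen IX decorates collagen II fibrils, and its gene col9a2.L differed by -0.66 in xMLTK-MO and -1.28 in xSox6-MO. Its genes col9a1.L and col9a3.L differed by -0.47 and -0.43 in xMLTK-MO and by -0.58 and -0.79 in xSox6-MO. In xSox6-MO both thus differed by more than col2a1.L and by less than epyc.S. The matrilin gene matn4.L differed by -1.03 and -0.91. Another matrilin gene, matn1.L, was above background only in CoMO and so at least 4.10-fold and 5.10-fold lower. The link protein gene hapln3.L differed by only -0.03 in xMLTK-MO and by -0.38 in xSox6-MO. Its other copy, hapln3.S, was the 1 higher copy in each comparison, at 0.23 and 0.15.

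Of 15 other secreted chondrocyte products listed, 4 had a probe set, and of these only frzb, a secreted Wnt inhibitor, was above background. Its copies frzb.L and frzb.S differed by -0.06 and -0.32 in xMLTK-MO and by 0.36 and -0.33 in xSox6-MO. Another entry, frzb without a copy letter, was below background on all 3 arrays. The matrix Gla protein gene mgp.L, the hedgehog ligand gene ihh.S and clec3a.L were below background on all arrays. The other 11 symbols of the list were not measured here.

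Relatives of the members by protein family were compared next. Of 7 copies of small leucine-rich repeat genes, the family of epiphycan, 6 were lower in xMLTK-MO with a median of -0.23, and 5 were lower in xSox6-MO with a median of -0.28. In each comparison 1 copy was at least 2-fold lower, the asporin gene aspn.L. Its intensity was 15.6 in xMLTK-MO and 14.9 in xSox6-MO, both below background, against 83.7 in CoMO, which makes it at least 3.20-fold and 3.98-fold lower. The decorin gene dcn.L had log2 differences of 0.15 and 0.39, dcn.S -0.35 and -0.30, and the biglycan gene bgn.L -0.02 and -0.20. The difference of epyc.S from CoMO was larger than those of these widely expressed relatives on the same arrays.

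None of the 4 copies of the other BRICHOS domain genes differed from CoMO by 2-fold on either morphant array. Their medians were 0.10 in xMLTK-MO and 0.09 in xSox6-MO, with sftpc.S, a gene of the lung surfactant protein in mammals, at 0.28 and 0.39. The integral membrane protein genes itm2a.L and itm2b.L differed by -0.04 and -0.12 in xMLTK-MO and by -0.22 and -0.03 in xSox6-MO. Both cnmd copies differed by more than any of the 4. The tenomodulin gene, its closest relative, had no annotated probe set among those used.

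Of 11 copies of vitamin K-dependent Gla protein and carboxylation genes, 0 differed by 2-fold in either comparison, with medians of 0.16 in xMLTK-MO and 0.0009 in xSox6-MO. The clotting factor gene f2.L, which is expressed in liver, differed by 0.52 and 0.08. The carboxylase gene ggcx.L, whose enzyme makes Gla residues, differed by -0.16 in xMLTK-MO and -0.50 in xSox6-MO. The lowest of the list was vkorc1.S, whose enzyme recycles vitamin K for carboxylation, with intensities of 961 in xMLTK-MO and 900.4 in xSox6-MO, against 1730 in CoMO. Its log2 differences were -0.85 and -0.94, and this enzyme serves all Gla proteins, not Ucma alone.

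The regulators of chondrocyte formation lay on both sides of 0. Of 9 copies, 4 were lower and 5 higher in each comparison, 0 were 2-fold lower or higher, and the medians were 0.01 in xMLTK-MO and 0.18 in xSox6-MO. The sox9.L gene had intensities of 1469 in xMLTK-MO and 1439 in xSox6-MO, against 1474 in CoMO, and sox9.S differed by -0.26 and -0.28. The sox8.L gene differed by -0.58 and -0.57, and bmp4.S, the highest of the list, by 0.65 and 0.57. The joint gene gdf5.L was at least 1.90-fold lower in xMLTK-MO, where it was below background, and differed by -0.86 in xSox6-MO. There gdf5.L was close to background too, at 1.31 times the brightest negative control. In these lists 15 regulator symbols were named and 7 had a probe set, sox5 and sox6 not among them, so the Sox6 transcript could not be checked.

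**Figure D4:**
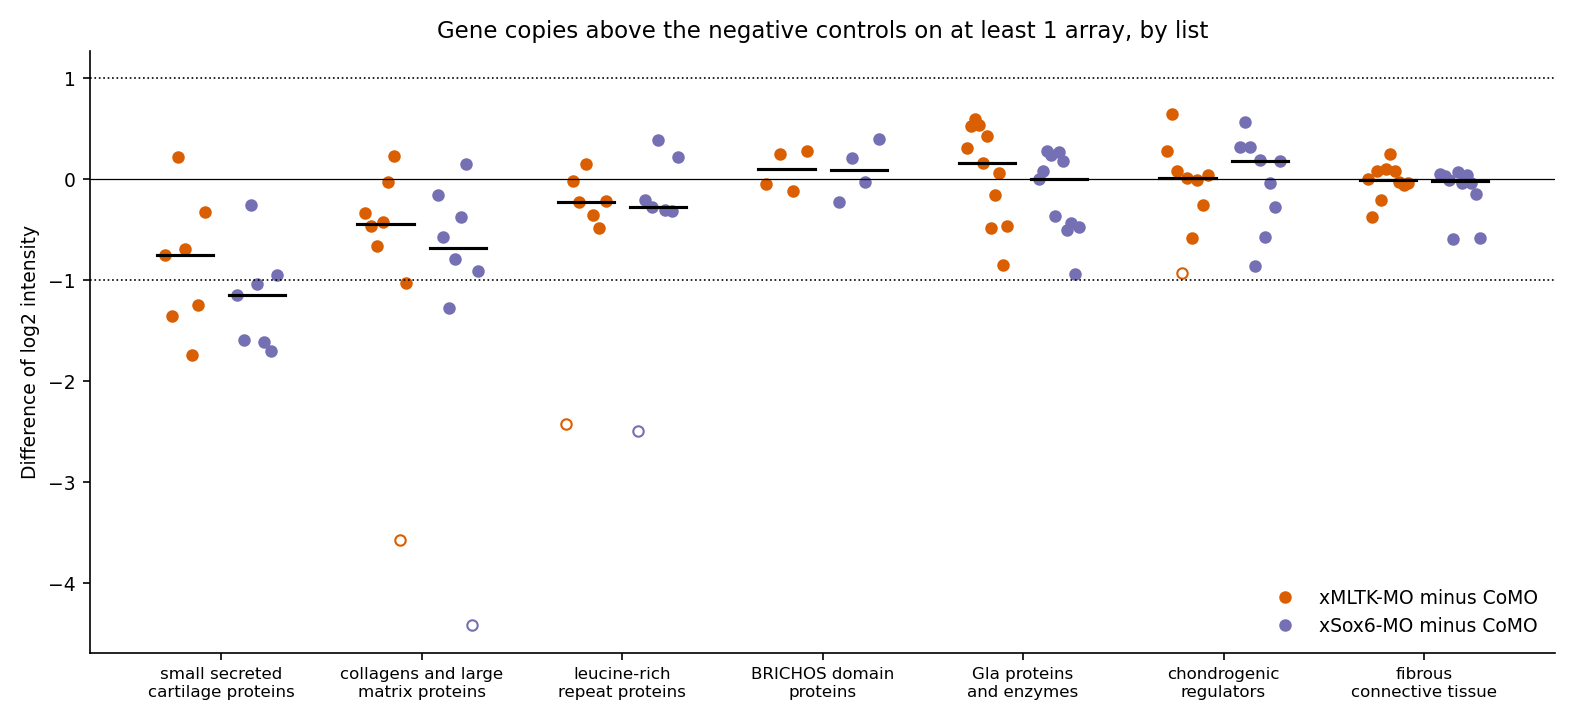
Difference of log2 intensity from CoMO of each gene copy above background on at least 1 array, by list, for xMLTK-MO (orange, left) and xSox6-MO (violet, right); open points are copies below background on 1 of the arrays compared, short black lines are medians and dotted lines mark 2-fold. The small secreted cartilage proteins have medians of -0.75 and -1.15, and fibrous connective tissue has medians of -0.01 and -0.02.

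Lists of other head tissues were set beside the members. The head tissue list, mostly brain and eye genes but also dlx5.L, had medians of -0.13 in xMLTK-MO and 0.04 in xSox6-MO. Its lens crystallin gene cryaa.S was low on both morphant arrays. Its intensity was 237 in xMLTK-MO and 80.3 in xSox6-MO, against 342 in CoMO, a log2 difference of -0.53 and -2.09, with the arrays in the same order as for cnmd and epyc.S. Fibrous connective tissue and perichondrium genes, 10 copies above background on all 3 arrays, had medians of -0.01 in xMLTK-MO and -0.02 in xSox6-MO and 0 past 2-fold. Their summed intensity was 38446 in xMLTK-MO and 38064 in xSox6-MO, against 38821 in CoMO. The collagen I gene col1a1.S had intensities of 7024 in xMLTK-MO and 7288 in xSox6-MO, against 7018 in CoMO. Single copies varied more, with 5 lower and 5 higher in xMLTK-MO, and 6 lower and 4 higher in xSox6-MO. In xMLTK-MO they ran from -0.38 for col1a2.L to 0.25 for col6a2.L. In xSox6-MO they ran from -0.60 for col5a1.L to 0.07 for col6a1.L, with tnc.L at -0.58. Of 9 neuron copies, 0 were past 2-fold, with medians of -0.01 and -0.09. Of 8 skeletal muscle copies, 6 and 7 were lower, with medians of -0.18 and -0.23, and acta1.S was the 1 listed copy past 2-fold, at -1.46 and -1.26. Numbered desmin copies, outside the list, differed by -0.51 (des.1.L), -0.52 (des.1.S) and 1.27 (des.2.S) in xMLTK-MO, and by -0.21, -0.57 and 0.39 in xSox6-MO. The summed intensity of the 8 listed skeletal muscle copies, desmin not included, was 41070 in xMLTK-MO and 38702 in xSox6-MO, against 45832 in CoMO. Of 5 epidermis copies, 5 were higher in xMLTK-MO and 4 in xSox6-MO, with medians of 0.27 and 0.28 and krt70.L past 2-fold in xSox6-MO at 1.08. Of 5 numbered krt12 copies above background, outside the list because it was matched on plain symbols, the differences ran from -0.72 for krt12.2.L to 0.28 for krt12.4.L in xMLTK-MO, and from -0.28 for krt12.2.L to 0.62 for krt12.4.S in xSox6-MO. The epidermis list summed to 26150 in xMLTK-MO and 26996 in xSox6-MO, against 22395 in CoMO, of which itln1.L made up 18900.4, 19672 and 15713. The part of these tissues' shares in the members' differences was not tested.

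Among 7253 other genes passing the level filter, the 10 whose pair of differences from CoMO lay nearest to the members' median pair, at -0.75 and -1.15, were found by Euclidean distance on the log2 scale. The likeness rests on 3 arrays, and both differences share the CoMO array. The median pair counts cytl1.L and is the same as the pair of cnmd.L. Other members lay away from it, such as otos.L at -1.74 and -1.62 and ucma.L at -0.33 and -0.95. The list thus describes genes near cnmd.L rather than near each member. The 10 genes were dpys.L, phgdh.S, fah.L, crygdl.11.S, endoul.S, papss2.S, srl.L, col9a2.L, ikbip.S and lgals9b.L, at distances of 0.04 to 0.16. They included a cartilage collagen (col9a2.L), a sulphate donor synthase used for proteoglycans (papss2.S), a lens crystallin (crygdl.11.S), a muscle calcium-binding protein (srl.L) and enzymes of pyrimidine and tyrosine breakdown (dpys.L and fah.L). The intensity of papss2.S was 433 in xMLTK-MO and 372 in xSox6-MO, against 771 in CoMO. In all, 25 genes lay within 0.25 of the members' median pair.

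The scale chosen for the arrays moved these values. Spiked hybridisation controls, added after RNA labelling, had median log2 differences from CoMO of -0.10 in xMLTK-MO and -0.15 in xSox6-MO, and poly-A controls, added to the RNA, had -0.27 and -0.35. Centring on the hybridisation controls left cnmd.S, otos.L and otos.S at least 2-fold lower in xMLTK-MO, 3 genes as before. It left 3 rather than 5 in xSox6-MO, with cnmd.L at -0.99 and epyc.S at -0.88. It also moved the split past 2-fold among the 7258 genes passing the level filter to 127 higher and 38 lower in xMLTK-MO, and 113 higher and 52 lower in xSox6-MO, against 93 and 57, and 71 and 77, as deposited. Centring on the poly-A controls, an alternative added after seeing the data, left cnmd.S and otos.L in xMLTK-MO and cnmd.S, otos.L and otos.S in xSox6-MO. The difference of ucma.L in xMLTK-MO was then -0.06. The split among those 7258 genes became 201 higher and 20 lower in xMLTK-MO, and 245 higher and 25 lower in xSox6-MO. Under every setting run, cnmd.L, cnmd.S, epyc.S, ucma.L and both otos copies were lower than in CoMO on both morphant arrays.

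**Figure D5:**
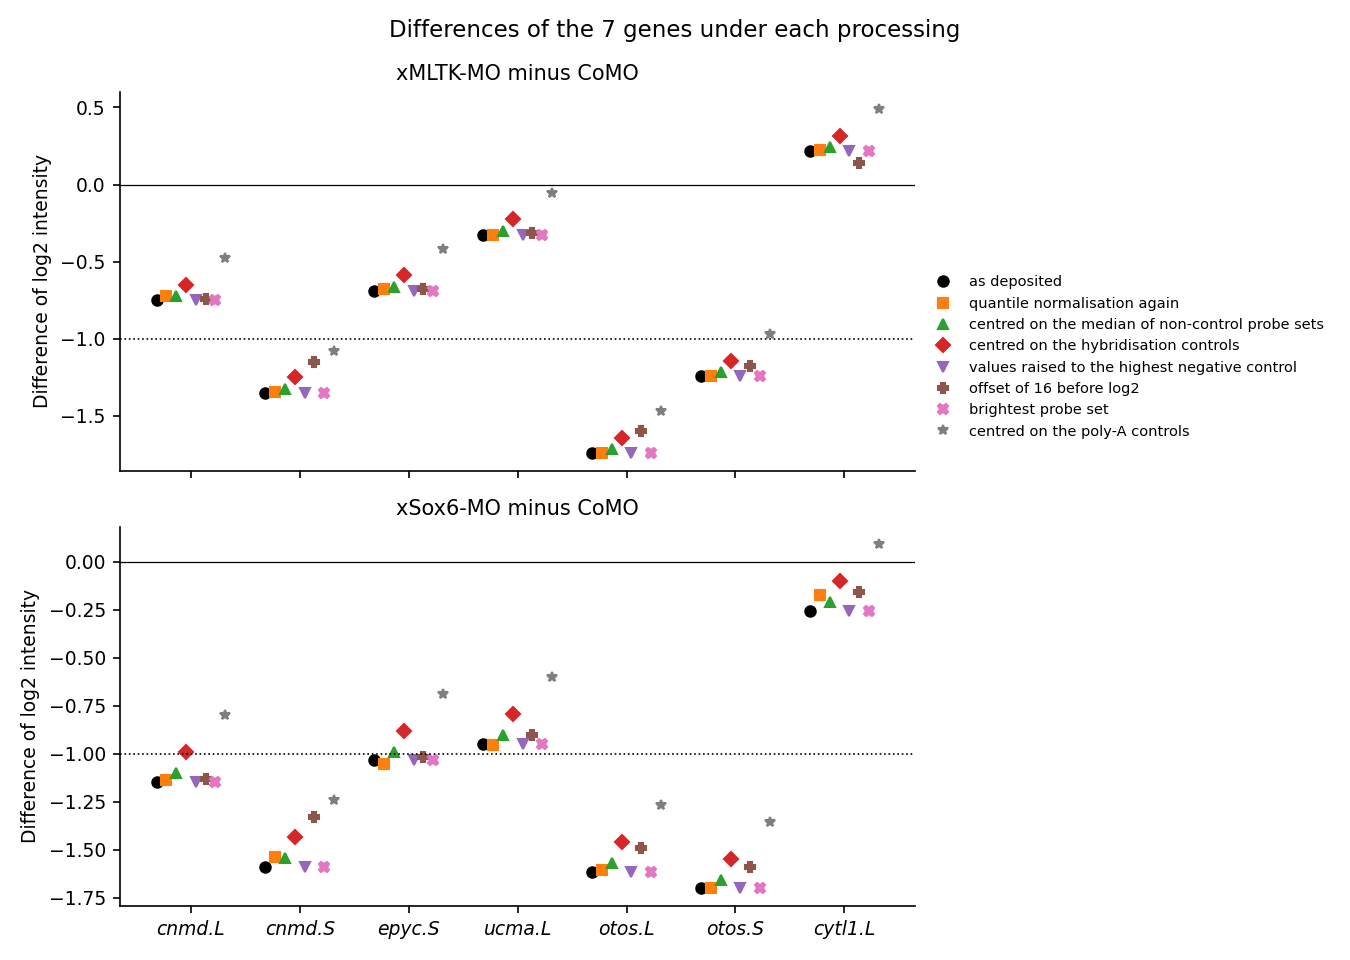
Difference of log2 intensity from CoMO of the 7 genes under 8 ways of processing, for xMLTK-MO and xSox6-MO, with a dotted line at 2-fold lower. Symbols of a gene lie close together except for centring on the hybridisation or poly-A controls and an offset of 16, and otos.L and cnmd.S stay below the dotted line throughout.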

How the data were processed

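RNA of 3 tadpole head samples, 1 array each, was measured on the Affymetrix Xenopus laevis Genome 2.0 Array. The authors deposited probe-set intensities on a linear scale, made with RMA per the submitters' processing notes (background correction, quantile normalisation and probe-set summary), with GCOS 1.4 and GeneSpring GX 11.0.2 per the series' design text. Quantile normalisation hides a change shared by all transcripts. Of 32635 probe sets, 15505 had 1 symbol in the platform annotation. Of these, 15394 were matched by gene identifier to a RefSeq table of Xenopus laevis, which changed 2 symbols. That table was used for names and gene order only. Here log2 was taken with pandas 2.3.3, probe sets of a symbol were averaged, and arrays were subtracted with no test. The code for the differences was checked on simulated arrays with known folds. Genes were counted at 2-fold. Named genes are, by rule, the members, listed genes above background on at least 1 array and past 2-fold, and the 10 nearest genes. The rule also took the 3 brightest of each list, but not all of these are named here. Other listed genes, homeolog pairs, numbered copies and neighbours were named after their values were seen. Members and lists were chosen with earlier results of these data known. A fold against a value below background is at least the brighter value over the brightest negative control, a rule added after seeing the data. Protein and promoter sequences were not used here. Each array's number, 1 per group, limits the precision.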

Additional observations from a re-analysis of the deposited data

How the results depend on the processing

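Of 147 values of single members under 7 alternatives, 113 moved by less than 0.1 on the log2 scale, 34 moved by more, and 0 of those at least 2-fold lower changed sign. The brightest probe set gives the same members, since each had 1 probe set. Centring on hybridisation controls moved the members' median to -0.65 in xMLTK-MO and -0.99 in xSox6-MO, with 3 members at least 2-fold lower in xSox6-MO and 1.56% of genes 2-fold higher there. Centring on poly-A controls moved it to -0.48 and -0.80, with 3 members in xSox6-MO. It put 0.276% of genes 2-fold lower and 2.77% higher in xMLTK-MO, and 0.344% and 3.38% in xSox6-MO. At 1.5-fold, 5 members were lower in xMLTK-MO, and 1 was higher in xMLTK-MO than in xSox6-MO. The other medians moved by less than 0.1, and the other counts and shares by at most 1.5 times. Only cytl1.L turned sign, to 0.09 in xSox6-MO with poly-A centring. No paired analysis was possible because each group has 1 array, and no replicate could be left out. Brightness over background limits cytl1.L and cnmd.S.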

Other observations

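Genes next to the members were examined after the other values were seen, taking 5 protein-coding genes on each side in the gene order of the RefSeq table. Of 70 such neighbours 24 had a probe set and 22 were above background on at least 1 array. By measured values, 1 of the 22 was past 2-fold in xMLTK-MO and 0 in xSox6-MO. That 1 was ccdc3.L beside ucma.L. It was not above background in xMLTK-MO, so its difference is known only as at least 1.75-fold lower, short of 2-fold. The median log2 difference of the neighbours was -0.24 in xMLTK-MO and -0.06 in xSox6-MO. The decorin gene dcn.S, which lies near epyc.S in a run of leucine-rich repeat genes, had intensities of 876 in xMLTK-MO and 906 in xSox6-MO, against 1119 in CoMO. The phosphatase gene dusp6.S on the other side of epyc.S, an inhibitor of ERK signalling, had 451 in xMLTK-MO and 401 in xSox6-MO, against 232 in CoMO. The transcription factor gene msx1.L, the neighbour of cytl1.L, had 289.9 in xMLTK-MO and 275 in xSox6-MO, against 162 in CoMO. The neighbours cops9.S of otos.S and adipoq.L of otos.L differed by -0.52 and -0.62 in xMLTK-MO and by -0.55 and -0.71 in xSox6-MO. Their differences were smaller than those of the otos copies beside them.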
